A study of Homo sapiens with 2 samples.

Results

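The 8 genes described here are PARP9, PARP10, PARP12, PARP14, DTX3L, SAMD9, SAMD9L and DDX60, all known as genes that interferon can induce. They were chosen by symbol from earlier results of these same arrays, so that their differences between the arrays are given as a description, with no test. All probe sets whose platform gene symbol is exactly one of the 8 names were taken, which gave 16 probe sets for 8 of the 19775 genes named on the array. No probe set with several symbols included one of them.

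Expression was measured in U251, a human glioma cell line grown in DMEM with serum, with the Affymetrix HG-U133_Plus_2 array, whose sets of short probes lie mostly near the 3' ends of transcripts. The series holds 1 array of U251 cells labelled control under miR-31 transfection and 1 array of U251 cells transfected with miR-31, which the labels write has-miR-31. The control label does not say what those cells received. The labels do not give the kind of construct, the time from transfection to harvest or the arm of the microRNA. With 1 array in each group there is no spread between replicates, no p-value was computed, and the array number limits the precision of every value.

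Interferons bind receptors at the cell surface, and a transcription factor complex that contains IRF9 then binds the interferon-stimulated response element in the promoters of antiviral genes. PARP proteins transfer ADP-ribose from NAD to other molecules, and the interferon-linked ones mostly add single units rather than chains. PARP9 works as a complex with the ubiquitin ligase DTX3L, SAMD9 and SAMD9L are related cytoplasmic proteins that restrict poxviruses and can block translation, and DDX60 is a helicase-like protein linked to the sensing of viral RNA.

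To show the kind of sequence that distinguishes the transfection, the mature 5p arm of human miR-31 in RefSeq (GRCh38.p14, chr9:21512158-21512178, minus strand) is printed with its seed, bases 2 to 8, in capitals. None of the probe sets used here reads this RNA.
hsa-miR-31-5p: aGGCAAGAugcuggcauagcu

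Because the 8 genes are known interferon targets and were all higher on the same array, their promoters were searched for 2 motifs on both strands. The first was the core of the interferon-stimulated response element, spelled GAAA, then 2 bases of any kind, then GAAA, and the second was the core of the STAT site, TTCNNNGAA, which reads the same on both strands. RefSeq promoter windows (GRCh38.p14) of 300 bases, from 250 before to 50 after an annotated start, were matched by symbol for 7 of the 8 genes, with 2 windows for PARP9; PARP10 was not matched. The response element core was found in 6 of the 7 genes, PARP9, DTX3L, PARP14, PARP12, SAMD9 and DDX60. Counted by window, the core was in 6 of 8, and PARP9 and DTX3L share their site. Over all 35116 promoter windows, 3.57% held it. The members are known interferon targets, so a high share was likely before the search, and nothing is read from it. A match describes letters in the window and shows neither binding nor a cause. The matches are printed below with 15 bases on each side, read on the strand that gives GAAA first, with the 10-base core in capitals.
PARP9 and DTX3L: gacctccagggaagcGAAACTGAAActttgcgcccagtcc
PARP14: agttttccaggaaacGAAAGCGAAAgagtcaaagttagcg
PARP12: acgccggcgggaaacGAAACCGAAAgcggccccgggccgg
SAMD9: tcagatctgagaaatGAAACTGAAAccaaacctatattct
DDX60, farther from the start: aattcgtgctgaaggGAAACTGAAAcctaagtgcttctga
DDX60, nearer to the start: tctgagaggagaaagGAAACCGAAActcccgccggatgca

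PARP9 and DTX3L are neighbours read in opposite directions, and their match is 1 and the same site, chr3:122564332-122564341. It lay at positions -6 to 4 of the DTX3L start and at -41 to -32 of one of the PARP9 starts, on the minus strand of that window. The window of the other PARP9 start, chr3:122564735-122565034, held no match. The shared site, the SAMD9 site and the farther DDX60 site carried the same 10 letters, GAAACTGAAA. The nearer DDX60 site and the PARP12 site carried GAAACCGAAA, and PARP14 carried GAAAGCGAAA.

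DDX60 was the single member with 2 matches, at -88 to -79 and at -53 to -44, and 0.259% of all windows held more than 1. PARP12 had its match at -10 to -1 on the minus strand, PARP14 at -29 to -20, and SAMD9 at -136 to -127, the farthest from its start. Counted by window, the STAT core was in 7.66% of all windows. Counted by gene, it was found in 2 of the 7, in DDX60 at -124 to -116 and in PARP14 at -40 to -32. Neither of these overlapped a response element core. The whole DDX60 window (chr4:168318703-168319002, minus strand) is shown because it holds all 3 matches, with both response element cores in capitals, and the DTX3L window (chr3:122564088-122564387, plus strand) because it holds the site shared with PARP9.
DDX60: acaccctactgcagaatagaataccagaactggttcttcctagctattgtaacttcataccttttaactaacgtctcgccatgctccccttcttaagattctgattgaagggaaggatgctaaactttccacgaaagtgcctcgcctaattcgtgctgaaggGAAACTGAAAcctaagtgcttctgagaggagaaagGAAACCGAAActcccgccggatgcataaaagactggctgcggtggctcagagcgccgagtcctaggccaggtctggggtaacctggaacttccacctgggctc
DTX3L: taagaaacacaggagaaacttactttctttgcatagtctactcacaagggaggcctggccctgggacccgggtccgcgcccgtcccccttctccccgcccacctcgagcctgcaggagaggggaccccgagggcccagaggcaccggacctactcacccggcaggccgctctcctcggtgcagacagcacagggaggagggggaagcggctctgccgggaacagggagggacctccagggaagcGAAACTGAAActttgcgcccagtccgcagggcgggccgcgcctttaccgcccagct

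SAMD9L was the member whose window held no match, which says only that these letters are not in this window. Allowing 1 mismatch in the fixed letters, a choice made after the exact search, gave AAAACTGAAA at -48, but 33.0% of all windows pass that looser search. The SAMD9L window (chr7:93148336-93148635, minus strand) is printed for comparison with that of SAMD9, its neighbour on chromosome 7.
SAMD9L: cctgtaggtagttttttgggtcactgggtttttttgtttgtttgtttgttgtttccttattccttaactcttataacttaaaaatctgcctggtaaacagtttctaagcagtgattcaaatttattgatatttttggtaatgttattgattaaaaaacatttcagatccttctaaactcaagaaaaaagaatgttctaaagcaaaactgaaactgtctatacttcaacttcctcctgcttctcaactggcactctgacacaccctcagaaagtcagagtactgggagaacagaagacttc

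**Figure D1:**
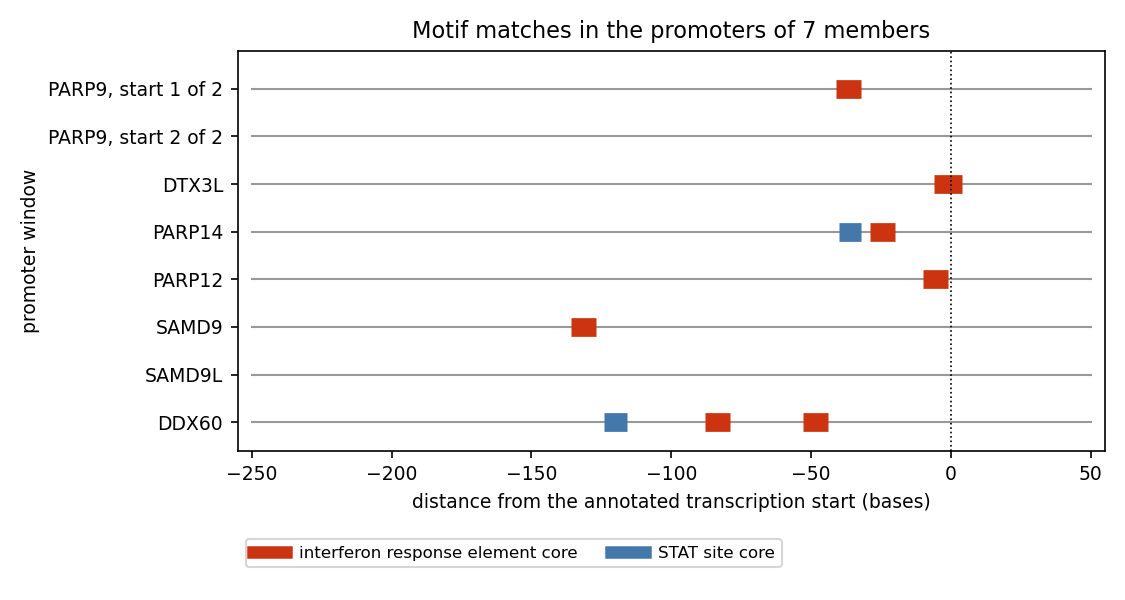
Positions of motif matches in the RefSeq promoter windows of 7 members, in bases from the annotated transcription start (dotted line), with the response element core in red and the STAT site core in blue. DDX60 has 2 red matches and 1 blue, PARP14 has 1 of each, and SAMD9L and one of the PARP9 windows have none.

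All 8 genes were higher in the miR-31 array than in the control array. Each gene was represented by its brightest probe set among those that passed a level minimum, the median over all probe sets of the mean level of both arrays (an intensity of 62.7). Ratios are log2(intensity + 16) of the miR-31 array minus that of the control array, so that a ratio of 1 is 2-fold on that scale, and the added 16 understates the change of dim probe sets. The ratios ran from 1.34 for DTX3L to 2.92 for DDX60, with a median of 1.98 over the 8 genes against 0.03 over all 11787 genes compared. At 2-fold or more higher were 8 of 8 members, beside 3.74% of all genes, and at 4-fold or more 4 of 8, beside 0.509%. The members were chosen on this contrast, so nothing is read from these shares. Among all genes the share past 2-fold fell with level, from 7.3% of the dimmest 2947 to 1.26% of the brightest 2947, the class that held DTX3L and SAMD9. Of 4 such classes counted from the dimmest, DDX60 and PARP10 were in class 2 and the other members in class 3. The level averages both arrays, so a high value on the miR-31 array raises the class of a member.

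**Figure D2:**
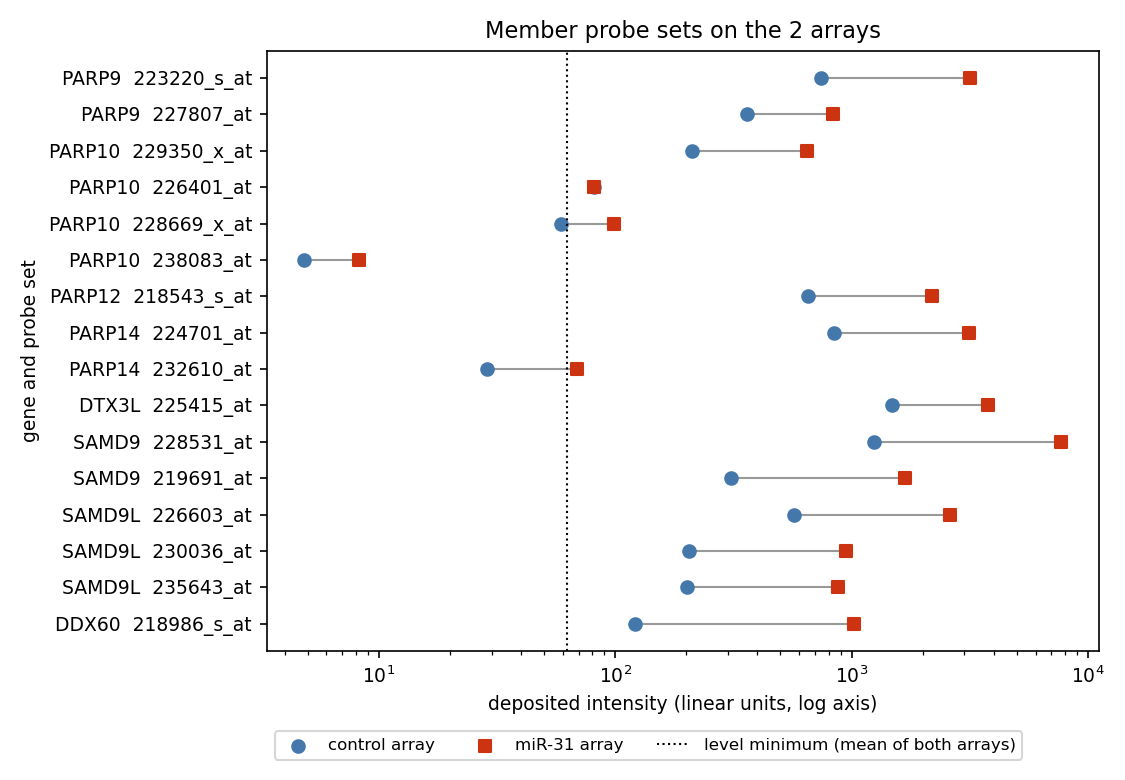
Deposited intensity of each of the 16 member probe sets on the control array (blue circle) and the miR-31 array (red square), on a log axis, with the level minimum of 62.7 dotted. All 16 squares lie at or to the right of their circles, and those of the PARP10 probe set 226401_at coincide at about 81.

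As a gauge of measurement error without replicates, the ratios of probe sets of the same gene were compared. Over 3142 genes with exactly 2 probe sets past the level minimum, the difference between the ratios of the pair had an SD of 0.47 on the log2 scale. The SD measures how probe sets disagree and holds nothing of the spread between cultures. In the order DDX60, SAMD9, SAMD9L, PARP9, PARP14, PARP12, PARP10 and DTX3L, neighbours were 0.10 to 0.43 apart, so that 0 of 7 neighbouring pairs were separated by more than that SD. The first and last differed by 1.58.

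The paired partners PARP9 and DTX3L were both higher in the miR-31 array. PARP9, which carries macrodomains that bind ADP-ribose, read an intensity of 741.6 on the control array and 3166 on the miR-31 array on probe set 223220_s_at, a log2 ratio of 2.07. Its other probe set, 227807_at, had 362.5 and 832.1, a ratio of 1.16. Both probe sets were past 2-fold, but their ratios differed by 0.91, more than the SD of such differences, and the gene stands at 1.16 when probe sets named _s_at, which may read more than one transcript, are left out. DTX3L, which attaches ubiquitin to its targets, had 1479 and 3782 on its single probe set 225415_at, a ratio of 1.34. Of the 8 members it had the lowest ratio by brightest probe set, but PARP10 (0.72) was lower with the mean of probe sets, and PARP10 (0.00) and PARP9 (1.16) were lower without _s_at and _x_at probe sets.

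PARP14 and PARP12 had ratios close to each other. PARP14, a large macrodomain enzyme that adds single ADP-ribose units, read 839.0 on the control array and 3135 on the miR-31 array on 224701_at, a ratio of 1.88. Its second probe set, 232610_at, lay below the level minimum, with 28.6 and 68.9 and a ratio of 0.93, in the same direction. PARP12, a zinc-finger PARP linked to the Golgi and to stress granules, had 651.9 and 2197 on its single probe set 218543_s_at, a ratio of 1.73.

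PARP10 had the widest range of ratios among the probe sets of a member. This enzyme adds single ADP-ribose units, and its brightest probe set, 229350_x_at, read 211.6 on the control array and 650.3 on the miR-31 array, a ratio of 1.55. The probe set 226401_at had 81.0 on both arrays, a ratio of 0.00. Another, 228669_x_at, had 58.8 and 98.9 (0.62), and the last, 238083_at, was below the level minimum with 4.85 and 8.27 (0.22). On the control array 228669_x_at was under the level minimum of 62.7, and it passed only through the miR-31 array. Names ending in _x_at mark probe sets that may bind related sequences of other genes, and whether they did so here was not tested. The 3 probe sets past the level minimum thus spanned 1.55, and the gene was at 0.72 with their mean and at 0.00 without _s_at and _x_at probe sets, both below 2-fold.

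SAMD9 and SAMD9L gave the closest agreement between probe sets. SAMD9, a restrictor of poxvirus replication, read 1250.0 on the control array and 7675 on the miR-31 array on 228531_at, a ratio of 2.60. On 219691_at it had 309.2 and 1684, a ratio of 2.39. Both probe sets were over 4-fold higher, and they differed by 0.22.

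SAMD9L, the neighbouring paralogue with a related antiviral and growth-limiting role, had 568.8 and 2619 on 226603_at, a ratio of 2.17. Its other probe sets had 205.0 and 948.9 on 230036_at (2.13) and 201.5 and 876.5 on 235643_at (2.04). All 3 were past 4-fold and within 0.13 of each other.

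DDX60 had the highest ratio of the 8 on the scale used, from a dim start. Its single probe set 218986_s_at read 121.1 on the control array and 1023 on the miR-31 array, which is 2.92 as a log2 ratio and 8.45 as a plain ratio of intensities. With a pseudocount of 64 the log2 ratio was 2.55, and SAMD9, at 2.56, was then the highest. It ranked 18 of 11787 genes, followed by SAMD9 at 25, SAMD9L at 51, PARP9 at 54, PARP14 at 79, PARP12 at 98, PARP10 at 126 and DTX3L at 188.

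**Figure D3:**
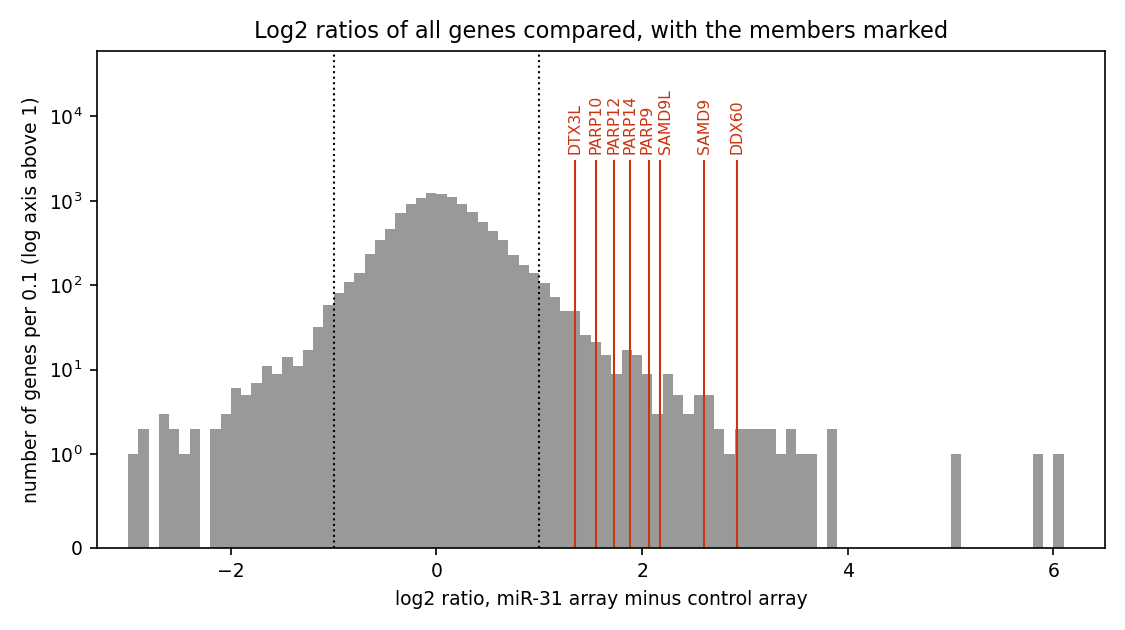
Number of genes per 0.1 of log2 ratio (miR-31 array minus control array) for all genes compared, on an axis that is logarithmic above 1, with the 8 members as red lines and 2-fold dotted. The members lie between 1.34 and 2.92, to the right of the upper dotted line.

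Counted by probe set, 16 of 16 ratios lay above 0, one of them at 0.00 to 2 decimals (PARP10 probe set 226401_at), beside 51.9% of the 41091 probe sets with 1 symbol at any level. That count holds on the deposited scale only. Median centring shifts every ratio by -0.08 and puts 226401_at below 0. Centring on poly-A spike-in controls lowers every ratio by 0.55 and also puts the PARP10 probe set 238083_at (0.22) below 0. Of the 16, 12 were at or past 2-fold, beside 6.03% of those 41091. Of the 14 past the level minimum 12 reached 2-fold, beside 3.58% of such probe sets. The 4 short of 2-fold were the 3 dimmer PARP10 probe sets and the dimmer one of PARP14. Probe sets of 1 gene read the same RNA on the same arrays and are not replicates.

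The PARP family outside the members was read with 13 further genes, a list chosen by family. Of these 11 were compared, and 0 were at least 2-fold higher and 0 at least 2-fold lower, with 9 above 0 and a median of 0.28. That median was -0.28 with the ratios centred on the poly-A spike-ins, whose own probe sets had a median of 0.55, so its sign depends on the scale. PARP1, the main DNA damage PARP, read 3610 on the control array and 2726 on the miR-31 array, a ratio of -0.40. PARP2, its relative in repair, had 0.03, and PARP3 had 0.13. TNKS and TNKS2, the tankyrases, had 0.26 and -0.37. PARP4, the vault PARP, had 0.42, PARP6 had 0.28, PARP11 had 0.31, PARP16, a PARP of the endoplasmic reticulum, had 0.58, and TIPARP, an inducible PARP that limits aryl hydrocarbon receptor signalling, had 0.36.

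ZC3HAV1, the antiviral zinc-finger protein also called PARP13, binds viral RNA. It read 2877 on the control array and 3722 on the miR-31 array on its brightest probe set, a ratio of 0.37. Its 3 probe sets ran upwards from 0.37, with the highest, 220104_at, at 207.1 and 495.7 and past 2-fold. PARP15, a macrodomain PARP whose gene lies between DTX3L and PARP14, was below the level minimum on both of its probe sets, with a ratio of 0.01 on the brighter one. PARP8 was also below it.

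DTX3L differed from its DELTEX relatives and DDX60 from most Ski2-like helicases by the same measure, which is a description since the members were chosen on it. Of DTX2, DTX3 and DTX4, 3 of the 4 other DELTEX ubiquitin ligases, none was past 2-fold, with ratios of -0.04, 0.47 and -0.58 against 1.34 for DTX3L. DTX1 was below the level minimum. Among 7 further Ski2-like helicases compared, 2 were past 2-fold in the upward direction, beside 3.74% of all genes, and the median of 0.16 became -0.39 after centring on the poly-A controls.

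DDX60L, the paralogue next to DDX60 on chromosome 4, read 117.7 on the control array and 745.9 on the miR-31 array on 228152_s_at, a ratio of 2.51. Its other probe set, 1559585_at, was below the level minimum with 34.1 and 55.7 (0.52). The brighter DDX60L probe set and the DDX60 probe set are both of the _s_at kind, and whether either reads RNA of the other gene was not tested. HELQ, a DNA repair helicase, had 1.01 on its brightest probe set, and its 3 probe sets past the level minimum ran from 0.21 to 1.01. It fell short of 2-fold with median centring (0.94) and with centring on the poly-A controls (0.46). The others were SKIC2 (0.19) and MTREX (-0.07), which feed RNA to the exosome, ASCC3 (-0.64), the splicing helicase SNRNP200 (0.16) and the repair polymerase POLQ (-0.19).

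**Figure D4:**
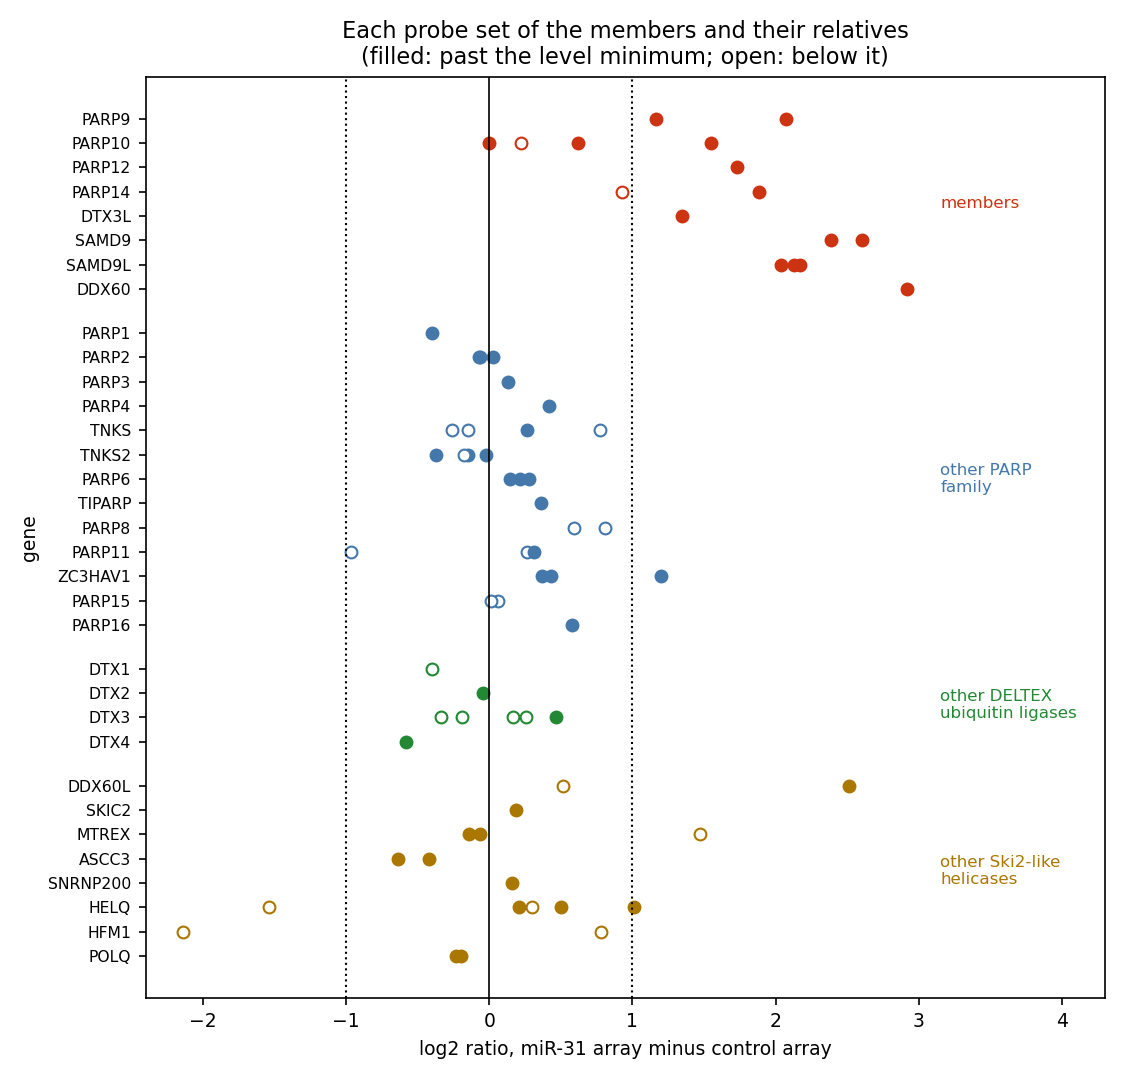
Log2 ratio (miR-31 array minus control array) of every probe set of the members (red), the other PARP genes (blue), the other DELTEX ligases (green) and the other Ski2-like helicases (brown), filled where past the level minimum, with 2-fold dotted. Among filled points outside the members, DDX60L at 2.51, ZC3HAV1 (probe set 220104_at) and HELQ at 1.01 lie past 2-fold higher.

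Among the nearest genes on the chromosome that passed the level minimum, DDX60L alone was past 2-fold. Taking the 2 named genes on each side of each member or member cluster, and PARP15, gave 21 neighbours, of which 14 were compared. Of these 1 was at least 2-fold higher, beside 3.74% of all genes, and 0 at least 2-fold lower, with ratios from -0.32 to 2.51 and a median of 0.19. The 7 below the minimum ran from -2.00 for TBXAS1 beside PARP12 to 1.66 for SPATC1 beside PARP10, which read 15.1 on the control array and 82.6 on the miR-31 array. Beside PARP9, DTX3L and PARP14 lay WDR5B (0.57), KPNA1 (0.20), HSPBAP1 (0.17) and SLC49A4 (0.27). Around SAMD9 and SAMD9L, CDK6, a G1 cyclin-dependent kinase, had -0.32, RBM48 had -0.10 and VPS50 had 0.34. PALLD beside DDX60 and DDX60L had 0.12, HIPK2 beside PARP12 had 0.02 and PLEC beside PARP10 had 0.00.

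Of 15 proteins that remove or bind the ADP-ribose that PARPs add, 11 were compared and none was past 2-fold, with 4 above 0, 7 below and a median of -0.13. GDAP2 had -0.39, OARD1, which clears ADP-ribose from proteins, had -0.30, NUDT9 had 0.21 and ENPP1 had 0.20. On their other probe set past the level minimum GDAP2 had -0.82 and OARD1 had 0.08. The 3 such probe sets of ENPP1 ran from 0.06 to 0.21. PARG, which cuts ADP-ribose chains, read 522.9 on the control array and 476.9 on the miR-31 array (-0.13); it was chosen after its value was seen.

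NAD supply, which feeds the reaction of the PARP enzymes, was read with 12 of 19 genes. None was at least 2-fold higher, 1 was at least 2-fold lower, beside 1.58% of all genes, and the median was 0.17, or -0.38 when centred on the poly-A controls. The gene past 2-fold was KYNU, kynureninase of the route from tryptophan to NAD, with 296.8 on the control array and 75.3 on the miR-31 array, a ratio of -1.78. Of its 4 probe sets, the 3 past the level minimum ran from -1.41 to -1.78. NMNAT1, which makes nuclear NAD, had -0.71 on its brightest probe set and up to 0.37 on others. NADSYN1, which makes NAD from the acid form, had 0.68, and NMRK1, a nicotinamide riboside kinase, had 0.58.

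Of the interferon signalling genes, 2 of 15 compared were at least 2-fold higher and 0 lower, beside 3.74% and 1.58% of all genes, and the median of 0.17 was -0.38 when centred on the poly-A controls. IRF9, the part of that complex that recognises the response element, read 475.1 on the control array and 1979 on the miR-31 array, a ratio of 2.02 that is close to the median of the 8 members. USP18, a feedback inhibitor of the receptor, had 135.5 and 515.8 (1.81), IRF1 had 0.75 and SOCS1 had -0.71. The ligand genes of the list, IFNB1, IFNA1, IFNA2, IFNE, IFNG and IFNL1, were all below the level minimum. IFNB1 was at 1.88 on both arrays. The others went in both directions. Their ratios were 1.63 for IFNE, 0.41 for IFNG, 0.04 for IFNL1, -0.11 for IFNA2 and -0.55 for IFNA1. IRF7, another gene of the list below the minimum, read 42.7 on the control array and 16.7 on the miR-31 array (-0.84). Values that low cannot be separated from background.

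Over all genes with a promoter window, 381 of those compared held the response element core, and 12.6% of them were at least 2-fold higher, beside 3.19% of the 9332 without it. The median ratios of these classes were 0.12 and 0.03. The count includes the 6 members that hold the core and was not tested. By the ratio alone, 1 value from 2 arrays, the genes nearest to the median of the members were ENPP5 (1.97), SRGN (1.99), TSHZ2 (1.96), ANK3 (1.99), DCLK1 (1.99) and ARHGEF37 (1.96). On the control array SRGN (29.9), ANK3 (25.5) and ARHGEF37 (55.9) were below the level minimum of 62.7, and ENPP5 (66.0) was just above it. The first 3 passed the minimum only through the miR-31 array, so their ratios rest on a control value near background.

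The arrays had been scaled alike, with a mean of 500.1 on both after leaving out the lowest and highest 2% of probe sets, and medians of 63.2 and 67.6. Of 11 astroglial and glioma markers 9 were past the level minimum, 4 with a ratio above 0 and 5 below and a median of -0.22, while S100B and AQP4 were below the minimum. By brightest probe set these 9 ran from -0.91 for NES to 0.85 for GFAP, which read 2007 on the control array and 3624 on the miR-31 array. On their other probe set past the level minimum NES had 0.03 and GFAP 1.03. Of 17 markers of microglia, macrophages and lymphoid cells 15 had a probe set and 3 were past the level minimum, with summed intensities of 273.1 and 341.3. These were CSF1R (0.35), ITGAM (-0.25) and CD79A (0.51). Those below the minimum went in both directions. PTPRC, which marks all white blood cells, was at 30.1 and 17.0, and CD14 at 4.45 and 53.0. For endothelial markers 2 of 5 passed, for neuronal 4 of 6, for epithelial 2 of 5 and for fibroblast 0 of 4, with KRT18 (-1.01) the one past 2-fold among those that passed. The fibroblast markers went in both directions. PDGFRB read 117.7 on the control array and 7.57 on the miR-31 array, and FAP 16.6 and 69.9. The part of other cells in the ratios of the members was not tested.

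Across the processing settings tried, no member had a gene ratio below 0, though single probe sets of PARP10 did. By gene, PARP10 alone came down to 0.00. Centring on the poly-A controls, which lowers every ratio by 0.55, left 6 of 8 at 2-fold, beside 1.05% of all genes. DTX3L was at 0.79, and PARP10, at 0.999, was just under 2-fold. Leaving out _s_at and _x_at probe sets removed DDX60 and PARP12, which have no other probe set, and left 5 of 6 at 2-fold, beside 3.8% of the genes that such probe sets read. With the mean of probe sets 7 of 8 were at 2-fold, beside 3.27%, PARP10 being the one short of it, and at 1.5-fold 8 of 8 were higher, beside 11.7%. SAMD9, SAMD9L, PARP14 and DTX3L are read by probe sets of the plain _at kind, and their ratios were not moved by that choice.

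**Figure D5:**
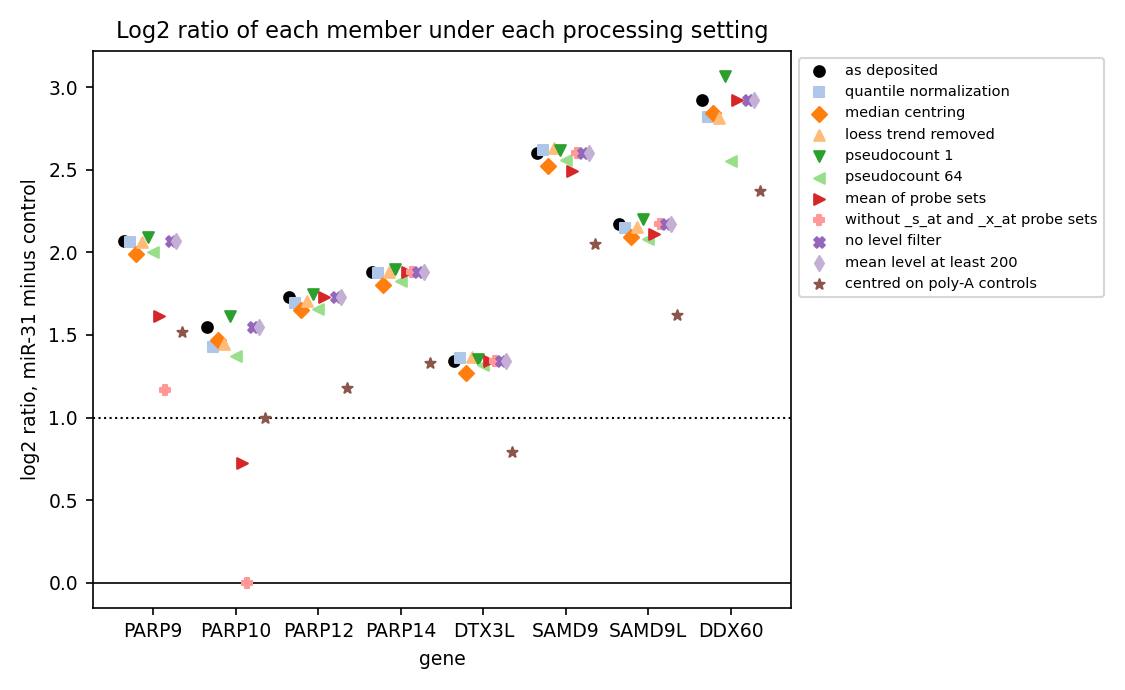
Log2 ratio (miR-31 array minus control array) of each member under each processing setting, with 2-fold dotted. PARP10 spreads from 0.00 to 1.61 (1.55 as deposited), while SAMD9 lies between 2.05 and 2.63 and DDX60 between 2.37 and 3.07.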

How the data were processed

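The values are intensities on a linear scale, which the authors deposited as a table of 54675 probe sets by 2 arrays (HG-U133_Plus_2). The program behind them was not given in the sources used here. Per the labels' protocols, RNA came from a trizol extraction and was labelled with biotin by a 3' IVT kit. Probe sets with 1 symbol in the platform annotation (41091; 41037 matched RefSeq by Entrez identifier, 0 symbols changed) were used and 62 control probe sets left out. The level of a probe set is the mean of log2(intensity + 16) over both arrays, and a gene took its brightest probe set at or above the median level. Lists of related genes, and all probe sets of the 8 genes, were described by counts, medians and ratios; from lists without family members up to 4 genes with the largest absolute ratio were named, and markers and PARG were named after their values were seen. The members and lists were chosen with earlier results of these data known. Some genes of the interferon signalling list are not reported here. The calculation was tested on simulated data. A planned comparison of member proteins was not run. Alternatives were quantile normalization, median centring, loess (span 0.3), pseudocounts of 1 and 64, the mean of probe sets, no _s_at or _x_at probe sets, no level filter, a level of at least 200, thresholds of 1.5-fold and 4-fold and, chosen after seeing the data, centring on 24 poly-A controls and 1 mismatch in the motif. Calculations used pandas 2.3.3 and numpy 2.4.6 under Python 3.11.15, with statsmodels 0.14.6 for loess, scipy 1.17.1 for trimmed means and matplotlib 3.10.9 for figures.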

Additional observations from a re-analysis of the deposited data

How the results depend on the processing

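No paired analysis was possible because the series has a single array per group, which also leaves none to omit. The number of members at least 2-fold higher, 8 of 8, was 5 of 6 without _s_at and _x_at probe sets, which leave fewer genes, and 4 at a threshold of 4-fold; it was 7 with the mean of probe sets, 6 when centred on the poly-A controls and 8 under each of the other settings tried. The median log2 ratio of the members, 1.98, was 1.61 without _s_at and _x_at probe sets and 1.43 when centred on the poly-A controls. The number of member probe sets past 2-fold, 12, ran from 9 (poly-A controls) to 13 (pseudocount 1). Single member ratios were above 0 in all 78 alternative values, and 13 of these moved by more than 0.33, the SD of a probe set's ratio from the disagreement between probe sets. The medians of the related lists moved by more than that in 6 of 60 values, all with centring on the poly-A controls. The median of the ADP-ribose list was 0.00 without _s_at and _x_at probe sets, and that of the DELTEX list 0.21 with a level of at least 200. No detection calls were used, so that signal over background was not known for dim probe sets.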
